A study of Mus musculus with 191 samples.

Results

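Pentachloronitrobenzene (PCNB) and 4-Nitroanthranilic acid (NAAC) were the nitroaromatic compounds fed to mice in a series on 26 chemicals and the female mouse lung. PCNB, a fungicide, is a nitrobenzene whose remaining ring positions carry chlorine. NAAC is a benzoic acid with an amino and a nitro group on the ring. The members were defined by their labels, but the choice was made with earlier results of these data known. The rule of that choice named the gene Cyp1a1 as its marker. They came to 3 arrays of PCNB lungs and 4 arrays of NAAC lungs, 7 of 191 arrays in all.

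All animals of the 4 groups used here were female mice of the strain B6C3F1, a hybrid used in rodent cancer bioassays. Exposure began at an age of 5 weeks and lasted 13 weeks, and lungs were collected at 18 weeks of age. PCNB was given in rodent chow at 8187 ppm and NAAC at 10000 ppm, 7 days a week. The controls were 3 lungs labelled RodentChow and 4 lungs labelled FCO2, both fed chow at 0 ppm. Each array was of 1 animal by its individual number, and the right lobe was used, so the RNA is a mixture of all cells of the lobe. RodentChow arrays end their titles in the same code as PCNB arrays, and FCO2 arrays in the same code as NAAC arrays. The labels do not say what that code stands for. Each compound had 1 concentration, so no dose response could be read.

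The aryl hydrocarbon receptor (AhR) is a ligand-activated transcription factor of the cytosol, held there by heat shock protein and co-chaperones. Once it binds an aromatic ligand it enters the nucleus, pairs with Arnt and binds DNA that holds the core letters GCGTG. Its best known targets are the cytochromes P450 Cyp1a1, Cyp1a2 and Cyp1b1, which oxidise flat aromatic molecules, and the repressor Ahrr. Nitroaromatics are themselves metabolised by reduction of the nitro group and, where chlorinated, by conjugation with glutathione.

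The P450 genes of this family differ in the letters just before their start sites. The 250 bases before the RefSeq start site (GRCm38.p6) are shown for Cyp1a1 because it was the gene called with both compounds, and for Cyp1b1 and Cyp1a2 because their values parted from it. Capitals mark GCGTG, or CACGC where the motif lies on the other strand.
Cyp1a1: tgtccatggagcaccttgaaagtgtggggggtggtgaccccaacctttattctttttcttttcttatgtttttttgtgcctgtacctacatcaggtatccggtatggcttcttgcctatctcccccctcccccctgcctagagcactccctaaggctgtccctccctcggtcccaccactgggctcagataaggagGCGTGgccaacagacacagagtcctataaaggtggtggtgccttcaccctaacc
Cyp1b1: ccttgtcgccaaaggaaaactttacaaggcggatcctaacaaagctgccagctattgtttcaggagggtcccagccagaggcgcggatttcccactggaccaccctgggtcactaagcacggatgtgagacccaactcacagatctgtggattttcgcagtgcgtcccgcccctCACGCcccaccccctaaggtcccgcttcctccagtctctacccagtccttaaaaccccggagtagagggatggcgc
Cyp1a2: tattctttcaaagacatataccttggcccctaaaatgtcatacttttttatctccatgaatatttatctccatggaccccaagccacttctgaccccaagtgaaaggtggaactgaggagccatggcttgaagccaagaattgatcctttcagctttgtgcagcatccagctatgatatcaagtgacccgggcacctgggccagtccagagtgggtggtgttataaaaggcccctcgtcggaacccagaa
The Cyp1a1 window is chr9:57697363-57697612 on the plus strand, within the annotated gene, which spans chromosome 9 from 57687928 to 57703824. It holds 1 copy, 54 bases before the start, and the letters TATAAA 30 bases before it. The Cyp1a2 window has TATAAA 29 bases before its start, and the Cyp1b1 window has none. The Cyp1b1 window is chr17:79715062-79715311 on the minus strand and holds 1 copy, 76 bases before the start. The Cyp1a2 window is chr9:57683656-57683905 on the minus strand and holds none. Of 32851 RefSeq windows of this length 28.2% hold the GCGTG motif on either strand and 12.4% hold TATAAA, so a match here is a description and not a site.

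Cyp1a1, the P450 that is the usual marker of AhR activity, was higher with both compounds and was the 1 gene called with both. Its level on the deposited log2 scale (base 2 is assumed, since the labels state none) was 2.86, 2.30 and 2.23 in the PCNB lungs and 0.72, 0.01 and -0.02 in the RodentChow lungs. Every PCNB lung thus lay above every control lung, although 1 control lung stood above the others. The log2 fold change was 2.23 ± 0.28 (SE, n = 3 and 3), a 4.68-fold rise with a 95% interval of 3.20 to 6.83. In the limma fit to all arrays, with Benjamini-Hochberg adjustment over 13524 genes, the adjusted p was 3.5e-09.

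In NAAC lungs Cyp1a1 was at 1.14, 1.92, 1.82 and 1.59, against -0.04, 0.02, 0.52 and 0.47 in FCO2 lungs. The groups again did not overlap. The log2 fold change was 1.37 ± 0.24 (SE, n = 4 and 4), a 2.59-fold rise with a 95% interval of 1.87 to 3.60 and an adjusted p of 0.000706 by limma. The control means were alike, at 0.24 ± 0.42 (SD, n = 3) for RodentChow and 0.24 ± 0.29 (SD, n = 4) for FCO2. Levels reached 2.46 ± 0.34 (SD, n = 3) with PCNB and 1.62 ± 0.35 (SD, n = 4) with NAAC. Because concentrations and title codes differed, these values stand side by side and the difference between the compounds was not tested.

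Exact two-sided permutation tests over the arrays gave p = 0.1 for Cyp1a1 with PCNB, the smallest that 3 against 3 allows. With NAAC the exact permutation p was 0.0286, the smallest that 4 against 4 allows. These belong to a family of 6 exact permutation tests, and after Benjamini-Hochberg adjustment they were 0.150 and 0.0571. The limma call for NAAC was lost where its 8 arrays were fitted alone after quantile normalization, with a log2 fold change of 1.19 and an adjusted p of 0.669. The PCNB call was lost where its 6 arrays were fitted alone after median centring, at 2.20 with an adjusted p of 0.0515.

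**Figure D1:**
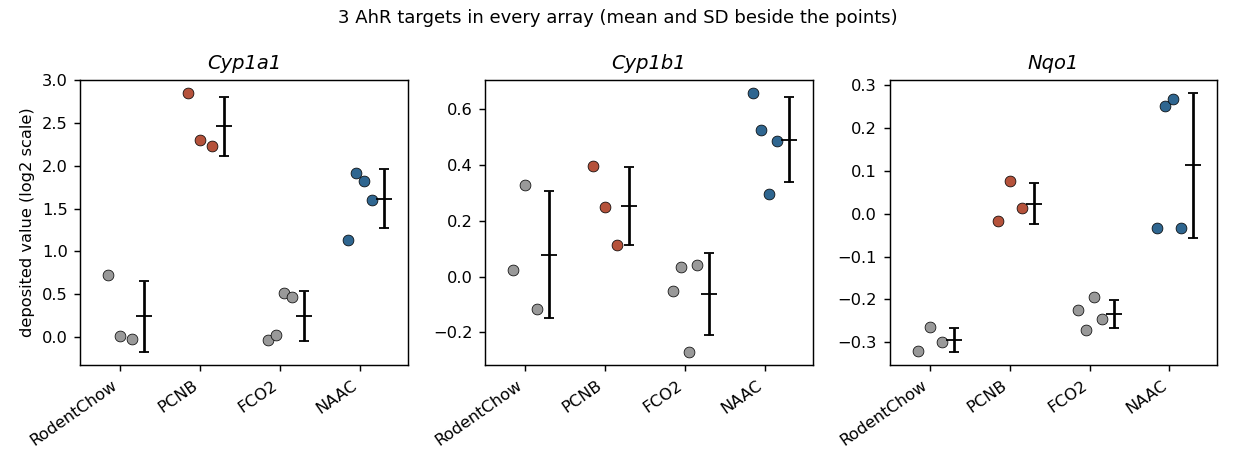
Deposited values (log2 scale) of Cyp1a1, Cyp1b1 and Nqo1 in each array, with the mean and SD of the group beside the points. Control lungs are grey, PCNB lungs red and NAAC lungs blue. Exposed and control groups do not overlap for Cyp1a1 and Nqo1 with either compound, while for Cyp1b1 they overlap with PCNB and not with NAAC.

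Among the 34 exposed groups of the series, each set against its own controls, PCNB ranked 3 and NAAC ranked 5 by the log2 fold change of Cyp1a1. The higher ranks were held by dietary 1,5-naphthalenediamine (NAPD), at 4.39 ± 0.28 (SE, n = 3), and 1-amino-2,4-dibromoanthraquinone (ABDQ), at 4.30 ± 0.24 (SE, n = 4). N-(1-naphthyl)ethylenediamine (NEDD) stood between the nitroaromatics at 1.94 ± 0.28. The next group after NAAC was iodoform (IODO) at 0.60 ± 0.24. The 95% intervals of PCNB (1.68 to 2.77), NEDD (1.40 to 2.49) and NAAC (0.90 to 1.85) overlapped in turn, while those of NAPD and ABDQ lay wholly above them. NAPD, NEDD and PCNB share their RodentChow controls, so their values are not independent. NAAC likewise shares its FCO2 controls with the dietary groups BBMP, DIAZ (diazinon) and MALA (malathion), which ranked 7, 8 and 9. These gave 0.46, 0.42 and 0.33, each ± 0.24, with 95% intervals that include 0. Against the mean of the 3 chow control sets RodentChow, FCO1 and FCO2, Cyp1a1 gave 1.20 with NAAC and 2.05 with PCNB.

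**Figure D2:**
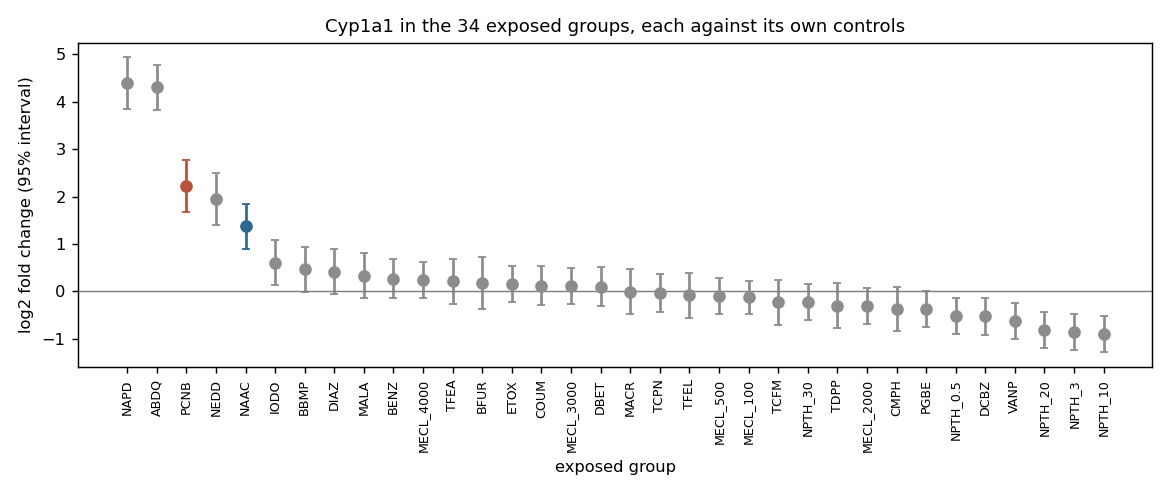
Log2 fold change of Cyp1a1 in the 34 exposed groups, each against the control sets of its vehicle and title code, with 95% intervals of the limma fit, in order of size. PCNB (red) is at 2.23 and NAAC (blue) at 1.37, with NEDD between them at 1.94.

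The other AhR targets gave smaller values, and none was called with either compound by limma. Of 11 genes listed, 9 had a probe set of their own and 8 passed the filter on low values. Of the 7 apart from Cyp1a1, 1 was higher at an unadjusted p under 0.05 with PCNB (Nqo1) and 2 with NAAC (Cyp1b1 and Nqo1), and 0 were lower. The counts were the same after quantile normalization. Over all genes 1.83% were higher and 0.399% lower at that threshold with PCNB, and 12.2% were higher and 2.80% lower with NAAC. The median log2 fold change of the 7 was 0.08 with PCNB, beside -0.04 over all genes, and 0.17 with NAAC, beside 0.10. After quantile normalization it was 0.08 and 0.01.

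Cyp1b1, which hydroxylates oestrogens and polycyclic hydrocarbons, was at 0.66, 0.53, 0.29 and 0.49 in NAAC lungs and at -0.05, 0.03, -0.27 and 0.04 in FCO2 lungs. The groups did not overlap, and the log2 fold change was 0.55 ± 0.12 (adjusted p = 0.0718 by limma), short of the threshold. It passed with median centring, at 0.56 (adjusted p = 0.0420), and without NAAC replicate 3, at 0.62 (adjusted p = 0.0267). It passed as well with the 8 arrays fitted alone (adjusted p = 0.0196), with these median centred (0.0162) and against the 3 chow control sets (0.0044). After quantile normalization it was at 0.45 with an adjusted p of 0.729. A further Cyp1b1 probe set gave 0.06 ± 0.08 with NAAC, so the probe sets of this gene disagree. With PCNB Cyp1b1 was at 0.40, 0.25 and 0.11 against 0.02, 0.33 and -0.12, which overlap, and its log2 fold change was 0.18 ± 0.14 with a 95% interval of -0.11 to 0.46.

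Nqo1, a quinone reductase that also reduces nitro groups and is a target of both AhR and NRF2, did not overlap its controls with either compound. It was at -0.02, 0.08 and 0.01 with PCNB against -0.32, -0.26 and -0.30, a log2 fold change of 0.32 ± 0.13. By limma the p was 0.0193 and the adjusted p 0.997. With NAAC it was at -0.03, 0.25, 0.27 and -0.03 against -0.22, -0.27, -0.19 and -0.25, a log2 fold change of 0.35 ± 0.12. By limma the p was 0.0034 and the adjusted p 0.296. Neither value passed the adjusted threshold. The NAAC value passed with its 8 arrays fitted alone (adjusted p = 0.0280), with these median centred (0.0283) and against the 3 chow control sets (0.0178). Quantile normalization left the values at 0.33 and 0.28, with adjusted p near 1.00.

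Cyp1a2, a P450 mostly of the liver, gave 0.10 ± 0.25 with PCNB and -0.19 ± 0.22 with NAAC, with 1 FCO2 lung at 0.02 and the other 3 between -0.76 and -0.60. Aldh3a1, an aldehyde dehydrogenase of epithelia, gave 0.08 ± 0.23 with PCNB and 0.36 ± 0.20 with NAAC, with overlapping groups in both. Tiparp, which curbs AhR by ADP-ribosylation, gave 0.01 ± 0.19 and 0.17 ± 0.16. Cyp2s1, a P450 of epithelia, gave -0.18 ± 0.16 and 0.04 ± 0.14, and Nfe2l2, which encodes NRF2, gave -0.16 ± 0.22 and -0.03 ± 0.19, in that order. The 95% intervals of these genes all include 0, which does not show that they were unchanged.

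**Figure D3:**
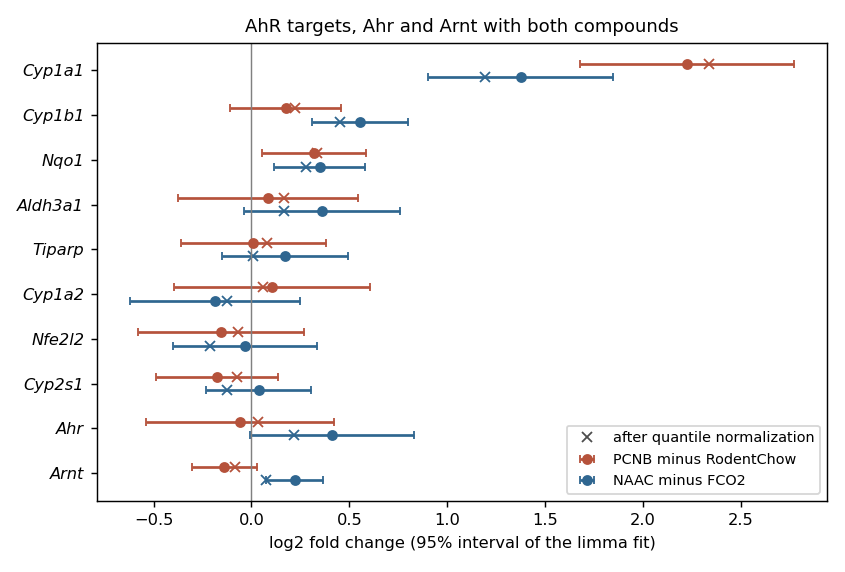
Log2 fold change with its 95% interval for the 8 AhR targets tested and for Ahr and Arnt, with PCNB (red) and NAAC (blue). Crosses are the values after quantile normalization. Cyp1a1 stands apart at 2.23 and 1.37, and the next highest value is that of Cyp1b1 with NAAC, 0.55.

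The receptor and its partners were measured through 10 genes of 15 listed, among them Arntl, a clock factor related to Arnt. With PCNB 0 of 10 were at an unadjusted p under 0.05, and with NAAC 2 were, both higher (20%, beside 12.2% of all genes). After quantile normalization both compounds had 0. Ahr itself was at 1.98, 1.85 and 2.20 with PCNB against 2.22, 2.12 and 1.87, a log2 fold change of -0.06 ± 0.24. With NAAC it was at 2.38, 2.33, 2.21 and 2.38 against 1.63, 2.33, 1.72 and 1.98, which overlap, a log2 fold change of 0.41 ± 0.21. Its adjusted p by limma was 0.336.

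Arnt, the partner of AhR on DNA, lay at 0.96, 0.99, 0.93 and 0.91 in NAAC lungs and at 0.69, 0.78, 0.75 and 0.69 in FCO2 lungs, with no overlap. Its log2 fold change was 0.22 ± 0.07 (adjusted p = 0.296 by limma) and 0.07 after quantile normalization. Ddb1, part of a ubiquitin ligase that AhR joins, gave 0.30 ± 0.12 with NAAC and 0.12 after quantile normalization. With PCNB Arnt gave -0.14 ± 0.08 and Ddb1 -0.01 ± 0.14. The coactivators Ncoa1 and Ncoa2, the corepressor Nrip1, the kinase Src, the chaperone Hsp90aa1, the ligase scaffold Cul4b and Arntl were not called with either compound.

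Over all genes PCNB gave 1 call by limma, Cyp1a1, which is 0.00739% of 13524 genes tested, and 0% were called lower. At an unadjusted p under 0.05 there were 248 genes higher and 54 lower with PCNB. Every PCNB lung lay above every control lung for 332 genes (2.45%) and below for 565 genes (4.18%). Of the genes tested 7 moved by more than 0.5 on the log2 scale in either direction and 1 by more than 1.

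NAAC gave 2 calls, 0.0148% of the genes tested, both higher, and 0% were called lower. There were 1649 genes higher and 379 lower at an unadjusted p under 0.05. Every NAAC lung lay above every FCO2 lung for 2741 genes (20.3%) and below for 509 genes (3.76%). Those shares are the background against which a gene with no overlap has to be read.

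The second gene called with NAAC was Smarcad1, a chromatin remodeller of the SNF2 family. It was at 0.60, 0.56, 0.41 and 0.63 in NAAC lungs and at 0.33, 0.16, 0.15 and 0.29 in FCO2 lungs. The groups did not overlap, and the rise was 0.31 ± 0.06 on the log2 scale (adjusted p = 0.0189 by limma). The call was lost after quantile normalization, at 0.19 with an adjusted p near 1.00, and where a gene's probe sets were averaged, at 0.25 (adjusted p = 0.264). It was lost as well with the arrays of the title code alone (adjusted p = 0.271). It was lost too without NAAC replicate 1, 2 or 4 or FCO2 replicate 2 or 3, with log2 fold changes between 0.29 and 0.31 and adjusted p between 0.0768 and 0.427. With PCNB Smarcad1 gave 0.03 ± 0.07.

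The count of calls with NAAC depended on how the arrays were fitted. With the 8 arrays alone limma called 1911 genes, 1810 higher and 101 lower. After quantile normalization of the same arrays it called 0, with 844 genes at an unadjusted p under 0.05. Against the mean of the 3 chow control sets RodentChow, FCO1 and FCO2 it called 953 genes with NAAC and 7 with PCNB.

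The spread of values within an array differed between NAAC and FCO2. The SD over probe sets was 1.32, 1.30, 1.36 and 1.35 in NAAC arrays and 1.25, 1.23, 1.21 and 1.22 in FCO2 arrays, with no overlap (exact permutation p = 0.0286, adjusted 0.0571). Among the other diets set against FCO2, DIAZ arrays also lay above every FCO2 array in SD, while BBMP and MALA arrays overlapped FCO2. SDs ran from 1.27 to 1.33 with DIAZ, 1.21 to 1.41 with BBMP and 1.15 to 1.26 with MALA. Their median log2 fold changes over all genes were 0.06, 0.10 and 0.01, beside 0.10 with NAAC. The difference between the 3' and 5' probe sets of beta-actin, a sign of RNA integrity, was 0.34 ± 0.03 (SD, n = 4) in NAAC and 0.52 ± 0.07 (SD, n = 4) in FCO2 arrays (exact permutation p = 0.0286, adjusted 0.0571). In PCNB arrays it was 0.45 ± 0.14 (SD, n = 3) against 0.56 ± 0.08 (exact permutation p = 0.4), and their SDs of 1.14 to 1.22 overlapped those of RodentChow, 1.15 to 1.28 (exact permutation p = 0.3). RNA integrity numbers lay between 7.9 and 8.4 for NAAC and were 7.8 and 8.1 for the 2 FCO2 arrays that have one. They were 8.3, 8.3 and 8.9 for PCNB and 8.9, 8.7 and 8.3 for RodentChow. The optical density ratio on the labels was 2.87, 2.21 and 1.85 for PCNB and 1.80, 2.22 and 2.22 for RodentChow. The PCNB array at 2.87 was also the highest for Cyp1a1, at 2.86, and without it the Cyp1a1 log2 fold change was 2.03. The part of these differences in the results was not tested.

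Along with that spread, log2 fold changes followed the level of a gene. With NAAC the median log2 fold change was -0.02 in the third of genes of the lowest mean level and 0.18 in the third of the highest, with 4508 genes in each. With PCNB it ran the other way, from 0.03 to -0.08. Quantile normalization brought the NAAC medians to -0.03 and 0.01 and the PCNB medians to 0.02 and 0.00. It moved the median over all genes from 0.10 to -0.01 with NAAC and from -0.04 to 0.01 with PCNB, so list medians below are given on both scales. The share of genes higher at an unadjusted p under 0.05 moved from 12.2% to 0.932% with NAAC and from 1.83% to 2.27% with PCNB. The share lower moved from 2.80% to 2.23% with NAAC and from 0.399% to 0.599% with PCNB. Each list count below stands against these shares, and each list median against the medians over all genes.

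The responses to PCNB and NAAC were set side by side gene by gene, and whether they were alike was not tested. The comparisons share no control array. On deposited values 25.8% of 13524 genes had the same sign with both compounds, and Pearson's r across genes was -0.32 (genes are not independent replicates). After quantile normalization the same-sign share was 49.5% and r was 0.04. The median SE of a gene on deposited values was 0.12 with PCNB and 0.10 with NAAC. At that precision a low r cannot tell unlike responses from noise.

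Of the 248 genes higher with PCNB at an unadjusted p under 0.05 and the 1649 higher with NAAC, 2 were in both lists, Cyp1a1 and Nqo1. That is 0.806% of the PCNB list, beside 12.2% of all genes higher with NAAC. It is 0.121% of the NAAC list, beside 1.83% of all genes higher with PCNB. After quantile normalization 5 genes were in both, namely Cyp1a1, Nqo1, the glutathione S-transferases Gstm1 and Gstp1 and the lysosomal sterol carrier Npc2. They are 1.63% of 307 higher with PCNB, beside 0.932% of all genes higher with NAAC. They are 3.97% of 126 higher with NAAC, beside 2.27% of all genes higher with PCNB. A further 28 genes were higher with PCNB and lower with NAAC on deposited values. That is 11.3% of the PCNB list, beside 2.80% of all genes, and 7.39% of the 379 lower with NAAC, beside 1.83%. After quantile normalization 21 were, which is 6.84% of 307, beside 2.23% of all genes, and 6.95% of the 302 lower with NAAC, beside 2.27%. Another 5 were then lower with both, and 0 were lower with PCNB and higher with NAAC. Genes with no overlap and higher with both compounds came to 39, which is 11.7% of those with PCNB, beside 20.3% of all genes with NAAC, and 1.42% of those with NAAC, beside 2.45% of all genes with PCNB. Of the 565 genes below with PCNB 67 were above with NAAC, beside 20.3% of all genes, and 1 was below, beside 3.76%. Of the 332 genes above with PCNB 27 were below with NAAC, beside 3.76% of all genes. The 39 higher with both included Cyp1a1, Nqo1, the carboxylesterases Ces1g and Ces1f and the interferon-induced genes Oas1a, Oasl2 and Rtp4, named after their values were seen.

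**Figure D4:**
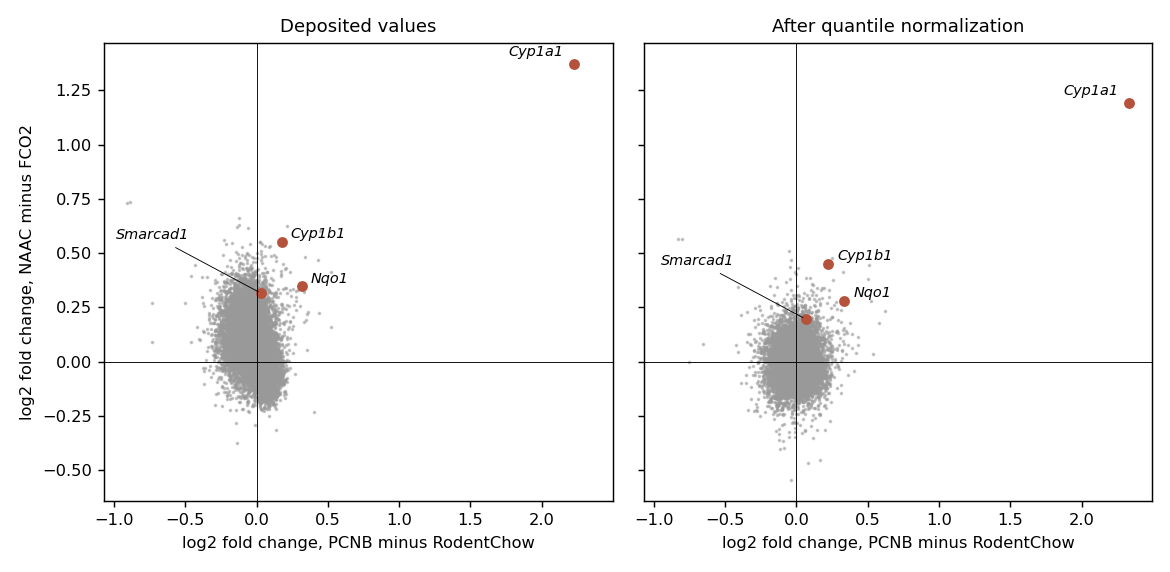
Log2 fold change of each of 13524 genes with PCNB (horizontal axis) and NAAC (vertical axis), from deposited values on the left and after quantile normalization on the right. Cyp1a1 lies alone at the upper right in both panels, at 2.23 and 1.37 on the left and 2.33 and 1.19 on the right. The cloud on the left leans up and to the left, with r = -0.32, and on the right it has no slope, with r = 0.04.

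Enzymes that reduce nitro groups and quinones were measured through 14 genes of 15 listed. With PCNB 1 was higher and 0 lower at an unadjusted p under 0.05, and with NAAC 5 were higher (35.7%, beside 12.2% of all genes) and 0 lower. After quantile normalization 3 were higher with PCNB and 2 with NAAC. Their median log2 fold change was 0.04 with PCNB (0.12 after quantile normalization) and 0.25 with NAAC (0.09). Xanthine dehydrogenase, Xdh, was at 2.77, 2.91, 2.53 and 2.72 in NAAC lungs against 2.30, 2.08, 2.35 and 2.30, with no overlap and a log2 fold change of 0.48 ± 0.17. Aldehyde oxidase Aox1, which can reduce nitro groups under low oxygen, gave 0.32 ± 0.12 with NAAC and 0.17 ± 0.13 with PCNB, without overlap in either. Carbonyl reductase Cbr3 gave 0.40 ± 0.17 with NAAC and 0.17 ± 0.19 with PCNB. None of these passed the adjusted threshold.

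Enzymes that conjugate or oxidise amines were tested through 9 genes of 15, and 2 were higher with NAAC at an unadjusted p under 0.05 (22.2%, beside 12.2% of all genes) and 0 with PCNB. After quantile normalization 1 was higher with NAAC. The flavin monooxygenase Fmo1 gave 0.39 ± 0.16 with NAAC and -0.03 ± 0.18 with PCNB. Monoamine oxidase Maoa gave 0.29 ± 0.13 and -0.06 ± 0.15, and the sulfotransferase Sult1a1 0.29 ± 0.17 and -0.14 ± 0.20, in that order. The list median was 0.25 with NAAC (0.07 after quantile normalization) and -0.09 with PCNB (-0.03).

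Glutathione S-transferases, which take up chlorinated nitrobenzenes in phase 2 metabolism, were not called with either compound. Of 24 listed 21 were tested, and 0 were at an unadjusted p under 0.05 with either compound. After quantile normalization Gstm1 and Gstp1 were higher at that threshold with both compounds, and Gstm3 lower with NAAC. Their median was 0.02 with PCNB (0.07 after quantile normalization) and 0.13 with NAAC (0.02). Gstm1 gave 0.13 ± 0.14 with PCNB and 0.18 ± 0.12 with NAAC, Gstt2 gave -0.02 ± 0.13 and 0.21 ± 0.12, and Gstm3 gave 0.10 ± 0.13 and -0.18 ± 0.11. Near-identical members of this family can share probe signal. The mercapturate pathway, which trims and exports glutathione conjugates, had 0 genes higher with PCNB. With NAAC 2 of 10 were higher (20%, beside 12.2% of all genes), the exporters Abcc3 (0.33 ± 0.14) and Abcc1 (0.22 ± 0.11). After quantile normalization both compounds had 0. The list median was 0.11 with NAAC (-0.01 after quantile normalization) and 0.02 with PCNB (0.05).

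NRF2 targets and glutathione synthesis were tested through 25 genes of 30. With PCNB 2 were higher and 0 lower at an unadjusted p under 0.05, and with NAAC 7 were higher (28.0%, beside 12.2% of all genes) and 1 lower. After quantile normalization 4 were higher with PCNB and 2 with NAAC. Their median was 0.05 with PCNB (0.13 after quantile normalization) and 0.22 with NAAC (0.06). Glutathione synthetase Gss gave 0.03 ± 0.12 with PCNB and 0.25 ± 0.10 with NAAC. The carboxylesterase Ces1g was at -0.14, -0.19 and -0.20 with PCNB against -0.55, -0.55 and -0.45, and its log2 fold change was 0.34 ± 0.19. With NAAC it gave 0.48 ± 0.17, again with no overlap. The related Ces1f was at 0.96, 1.01, 1.19 and 1.00 with NAAC against 0.71, 0.38, 0.28 and 0.30, a log2 fold change of 0.63 ± 0.16 (adjusted p = 0.127 by limma). With PCNB Ces1f gave 0.21 ± 0.18.

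Other P450s of lung had 0 of 14 genes at an unadjusted p under 0.05 with either compound. Cyp2f2, the main P450 of club cells, gave -0.02 ± 0.12 with PCNB and -0.14 ± 0.10 with NAAC. The retinoic acid hydroxylase Cyp26b1 gave -0.73 ± 0.42 with PCNB and 0.09 ± 0.36 with NAAC, and microsomal epoxide hydrolase Ephx1 gave -0.02 ± 0.17 and 0.23 ± 0.15. Targets of the nuclear receptors CAR and PXR, which respond to foreign chemicals in liver, had 0 of 11 at that threshold with PCNB and 1 with NAAC, Abcc3. Enzymes of heme synthesis and breakdown, active in red cell precursors as well as in cells that make P450s, had 4 of 14 higher with NAAC (28.6%, beside 12.2% of all genes) and 0 with PCNB. After quantile normalization both compounds had 0. Ferrochelatase Fech gave 0.45 ± 0.18 with NAAC and 0.18 ± 0.21 with PCNB, Alad gave 0.35 ± 0.15 and 0.03 ± 0.17, and Ppox gave 0.16 ± 0.06 and -0.05 ± 0.07. The median of the heme list was 0.23 with NAAC (0.04 after quantile normalization) and -0.01 with PCNB (0.07). Markers of erythroid cells and blood had the highest median of the 35 lists with NAAC, 0.29 (0.10), and 0.09 with PCNB (0.15). Of 7 tested 1 was higher at an unadjusted p under 0.05 with NAAC, Bpgm, which makes the red cell effector of haemoglobin (0.53 ± 0.18), and 1 lower, the transcription factor Gata1 (-0.11 ± 0.06). The mean level of the 7 lay between 1.42 and 1.69 in NAAC and 1.29 and 1.37 in FCO2 lungs. The mean over all genes tested did not overlap either, at 0.94 to 0.99 in NAAC and 0.86 to 0.90 in FCO2 lungs. The part of blood in the heme values was not tested.

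Interferon-response genes had the highest list median with PCNB among the 35 lists, 0.18 on deposited values and 0.23 after quantile normalization. With NAAC the median was 0.18 and 0.04. Of 14 tested 2 were higher at an unadjusted p under 0.05 with PCNB (14.3%, beside 1.83% of all genes) and 1 with NAAC (7.14%, beside 12.2%), and none was called. After quantile normalization 5 were higher with PCNB and 0 with NAAC. Oas1a, which makes the activator of RNase L, was at 1.21, 1.32 and 1.46 with PCNB against 0.93, 1.02 and 1.01, a log2 fold change of 0.34 ± 0.16. Mx2, an antiviral GTPase, gave 0.18 ± 0.05 with PCNB and was at -0.30, -0.34 and -0.37 against -0.49, -0.55 and -0.51. With NAAC Mx2 gave 0.00 ± 0.04. Rsad2, an antiviral radical SAM enzyme, gave 0.44 ± 0.31 with PCNB and 0.60 ± 0.27 with NAAC.

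DNA damage and proliferation genes were not called with either compound. Of 16 tested p53 targets 1 was lower with PCNB at an unadjusted p under 0.05, the death receptor Fas (-0.33 ± 0.15), and 2 were higher with NAAC, Ddb2 (0.20 ± 0.07) and Plk2 (0.31 ± 0.14), which is 12.5% beside 12.2% of all genes. The p53 list median was -0.10 with PCNB (-0.04 after quantile normalization) and 0.15 with NAAC (0.00). Of 18 tested cell cycle genes 5 were higher with NAAC (27.8%, beside 12.2% of all genes; 2 after quantile normalization), among them cyclin Ccnb2 (0.25 ± 0.11) and the replication helicase subunit Mcm5 (0.32 ± 0.14), and 0 with PCNB. The cell cycle median was 0.15 with NAAC (0.09 after quantile normalization) and 0.05 with PCNB (0.07). Phgdh, the entry enzyme of serine synthesis, gave 0.23 ± 0.08 with NAAC and 0.08 ± 0.10 with PCNB. It belongs to a list of endoplasmic reticulum stress genes, of which 17 were tested. Of these 1 was higher with NAAC at an unadjusted p under 0.05 (5.88%, beside 12.2% of all genes), and 0 after quantile normalization. The median of that list was 0.08 with NAAC (-0.07 after quantile normalization) and -0.01 with PCNB (0.07).

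The defining markers of 2 lung cell types, type 2 alveolar and club cells, were bright on every array. The surfactant gene Sftpc lay between 6.52 and 7.07 and the club cell secretoglobin Scgb1a1 between 6.38 and 6.88 over the 14 arrays. Scgb1a1 gave -0.23 ± 0.10 with NAAC, below every FCO2 array, and -0.06 after quantile normalization, and it gave -0.06 ± 0.12 with PCNB. The club cell list did not follow it. Of 15 club cell markers tested 8 were above 0 and 7 below with NAAC, with a median of 0.09. After quantile normalization 11 were above 0 and 4 below, with a median of 0.02. In bulk tissue fewer cells of a type and less RNA per cell cannot be told apart.

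Endothelial markers had a median of 0.27 with NAAC (0.12 after quantile normalization), with 2 of 14 higher at an unadjusted p under 0.05 (14.3%, beside 12.2% of all genes; 0 after quantile normalization), the VEGF receptor Kdr (0.35 ± 0.14) and the transcription factor Sox17 (0.36 ± 0.17). With PCNB their median was -0.08 (0.01) and 0 of 14 were at that threshold. Neutrophil markers had medians of -0.19 with PCNB and 0.21 with NAAC, and -0.14 and 0.10 after quantile normalization. On either scale 0 of 12 were at an unadjusted p under 0.05 with either compound. The neutrophil alarmin S100a8 gave -0.90 ± 0.64 and 0.73 ± 0.55, so its intervals include 0. The mean level of 12 neutrophil markers lay between 0.50 and 0.72 in PCNB and 0.69 and 0.98 in RodentChow lungs, which overlap. It lay between 0.82 and 1.15 in NAAC and 0.66 and 0.75 in FCO2 lungs. Over all genes tested the mean level also did not overlap with NAAC, at 0.94 to 0.99 against 0.86 to 0.90. With PCNB it overlapped, at 0.81 to 0.86 against 0.80 to 0.92.

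Markers of alveolar type 1 and type 2 cells, goblet cells, ciliated cells, macrophages, smooth muscle and B cells had 0 genes at an unadjusted p under 0.05 with either compound. Club cell markers had 1 of 15 higher and 1 lower with NAAC. Antigen presentation had 2 of 12 higher with NAAC (16.7%, beside 12.2% of all genes) and 0 after quantile normalization. The 2 were the immunoproteasome subunit Psmb8 (0.34 ± 0.16) and the peptide transporter Tap2 (0.26 ± 0.13). Tissue that can be caught with a lobe varied between lungs. The mean level of 13 cardiac muscle markers ran from 0.40 to 1.86 in NAAC and from 0.47 to 2.38 in FCO2 lungs, with a median log2 fold change of -0.02 (-0.08 after quantile normalization). In PCNB lungs it ran from 1.01 to 1.37 against 0.74 to 1.35, with a median of 0.12 (0.18).

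**Figure D5:**
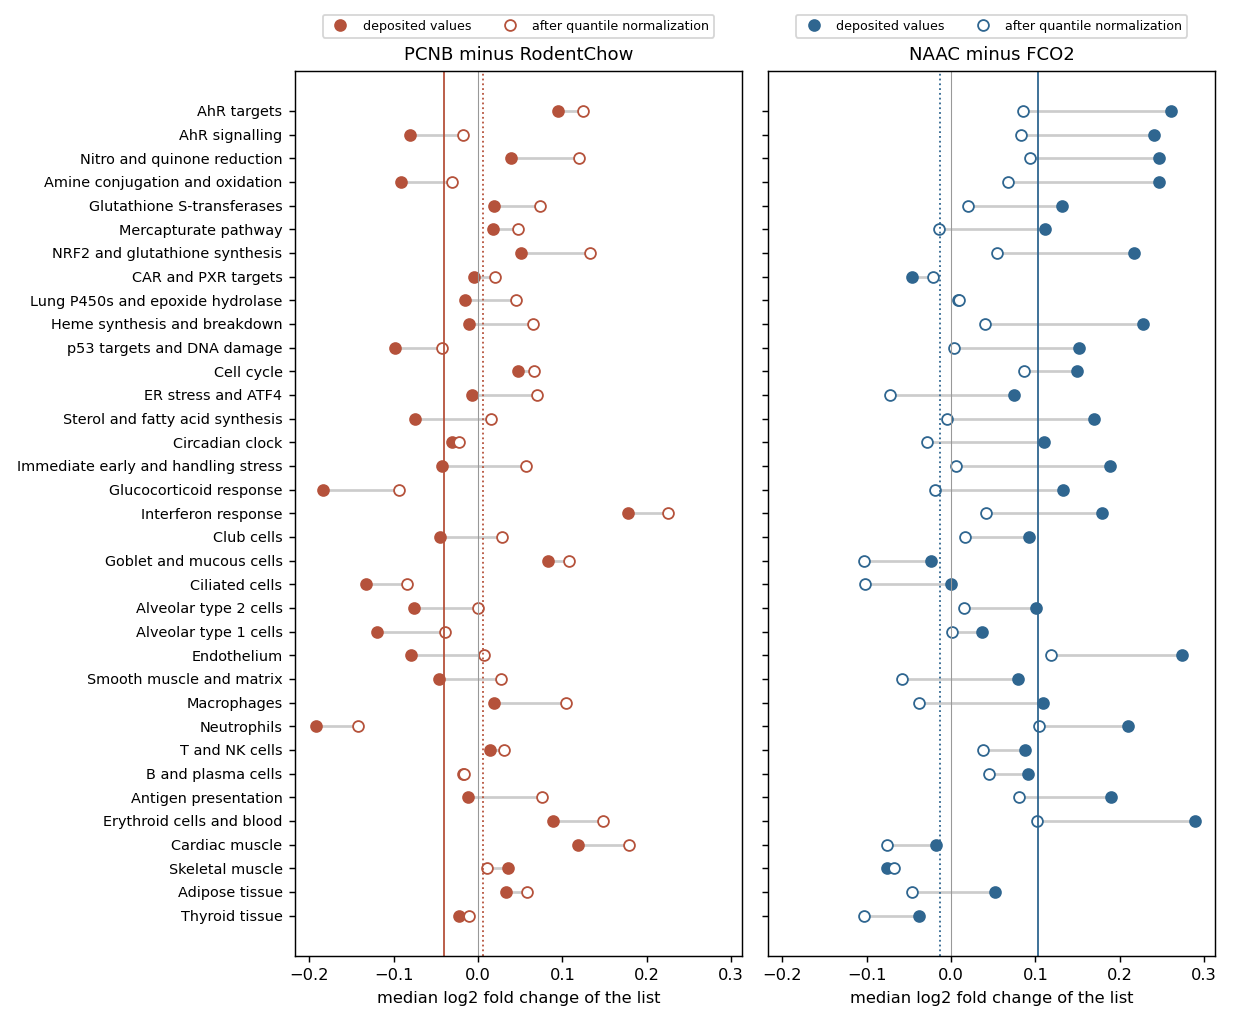
Median log2 fold change of the tested genes of each of 35 lists with PCNB (left) and NAAC (right), from deposited values (filled) and after quantile normalization (open). Vertical lines are the medians over all 13524 genes, solid for deposited values (-0.04 and 0.10) and dotted after quantile normalization (0.01 and -0.01). With NAAC 29 of 35 medians are above 0 from deposited values and 21 after quantile normalization. The sign changed in 10 lists with PCNB and 8 with NAAC.

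Genes beyond the lists were ranked by the moderated t statistic. After Cyp1a1 the highest with PCNB were Nr5a1, a steroidogenic factor (0.20 ± 0.06), Mx2, Greb1l (0.19 ± 0.06), Hdgfl1 (0.20 ± 0.06) and the transcription factor Atf7 (0.19 ± 0.06). The lowest with PCNB were Eps8l1, an actin regulator (-0.27 ± 0.09), the elongation factor subunit Paf1 (-0.21 ± 0.07) and the box C/D snoRNP protein Nop56 (-0.27 ± 0.10). All had an adjusted p of 0.997 by limma. Eps8l1 was below every control with PCNB and above every control with NAAC (0.23 ± 0.07), but the difference was not tested.

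With NAAC the highest after Cyp1a1, Smarcad1 and Cyp1b1 were Armc8, part of the CTLH ubiquitin ligase (0.37 ± 0.09, adjusted p = 0.0801), Atp9b, a lipid flippase (0.32 ± 0.08), the kinase Tnk2 (0.50 ± 0.12), Ces1f and the AMPK subunit Prkag1 (0.33 ± 0.08). The lowest were the growth factor relative Fgf11 (-0.18 ± 0.04) and the peptide hormone somatostatin, Sst (-0.25 ± 0.06), both at an adjusted p of 0.123 by limma. Both lay near or below the median of all values, -0.39.

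Genes called with the 2 strongest raisers of Cyp1a1 were then read in the nitroaromatic lungs, using only sources with other control arrays. ABDQ raised 87 genes against FCO1. With PCNB 2 of these were higher at an unadjusted p under 0.05, beside 1.83% of all genes, and 0 lower. With PCNB 1 of the 87 was called, and their median was 0.01 (0.02 after quantile normalization) beside -0.04 over all genes. With NAAC 9 of the 87 were higher, beside 12.2% of all genes, and 2 lower, 1 was called, and the median was 0.08 beside 0.10. After quantile normalization it was -0.05. The call was Cyp1a1 in both. The 37 genes lower with ABDQ had medians of -0.05 with PCNB (0.00 after quantile normalization) and 0.15 with NAAC (0.02). With NAAC 37 of these 37 were above 0 on deposited values, beside 76.5% of all genes. Of them 10 were higher at an unadjusted p under 0.05, beside 12.2% of all genes. After quantile normalization 24 of the 37 were above 0 with NAAC, beside 43.1% of all genes. With PCNB 12 of the 37 were above 0 on deposited values, where 0 were at that threshold, and 20 after quantile normalization. Of 140 genes raised by NAPD against RodentChow, 17 were higher, beside 12.2% of all genes, and 3 lower with NAAC, 1 was called, and the median was 0.07, or 0.00 after quantile normalization.

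Single genes of that group show the spread in size. Nqo1 was at 1.90 ± 0.13 with NAPD and 1.10 ± 0.12 with ABDQ, where it was called, beside 0.32 ± 0.13 with PCNB and 0.35 ± 0.12 with NAAC. Cyp1b1 was at 1.19 ± 0.14 with NAPD and 0.46 ± 0.12 with ABDQ, where it was called, beside 0.18 ± 0.14 and 0.55 ± 0.12. Ces1g was at 2.82 ± 0.19 and 0.77 ± 0.17, beside 0.34 ± 0.19 and 0.48 ± 0.17. Doses differed, at 2000 ppm for NAPD and 20000 ppm for ABDQ, so no difference was tested.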

How the data were processed

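Lung RNA was hybridised to Affymetrix mouse expression arrays with biotin label, per the labels' protocols. The log values used are those the authors deposited, taken here as log2; their base, background correction and normalization are not given in the sources used here, and every fold rests on base 2. Array means were equal within a title code. Of 45101 probe sets 34958 had 1 gene symbol, 932 several and 9211 none. The probe set with the highest mean stood for each of 18194 genes, and 13524 with at least 3 arrays above the median of all values were tested.

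A group-means model over all 191 arrays was fitted with limma 3.58.1 in R 4.3.3, with Benjamini-Hochberg adjustment over the genes tested and calls at an adjusted p under 0.05. The code was tested on simulated data. Permutation tests used scipy 1.17.1. Array number limits the precision. Named genes were every call, the 10 highest and 10 lowest moderated t per compound (passing over unnamed transcripts), every AhR gene tested and up to 4 members of each other list. Members, lists and rule were chosen with earlier results of these data known. A list is given by its counts and median, read against those of all genes, with no test. Alternatives were quantile normalization within the title code, median centring, no filter on low values, averaging a gene's probe sets, other sets of arrays or controls, trend and robust moderation, and each array left out. Median centring of the arrays of a contrast alone, and each probe set on its own, were added after seeing the data.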

Additional observations from a re-analysis of the deposited data

Results flagged for a closer look

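Of 196 sets of 4 values checked (named genes and 2 array measures, in NAAC or FCO2), 7 held 1 array far from the other 3, which is 3.57%; chance flags about 1 in 20. The groups of 3 arrays were not checked. In NAAC replicate 3, Bbs2 was at 0.26 where the other NAAC arrays lay between 0.05 and 0.07, Ephx1 at 4.11 (others 3.83 to 3.88) and Sult1a1 at 2.09 (others 2.47 to 2.51). In NAAC replicate 2, Hsp90aa1 was at 3.56 (others 4.07 to 4.18). In FCO2 replicate 2, Ncoa2 was at 1.52 (others 1.07 to 1.14) and Sult1a1 at 1.71 (others 2.21 to 2.27). In FCO2 replicate 3, Oas1a was at 0.71 (others 0.83 to 0.86). None of these genes was called.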

How the results depend on the processing

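Cyp1a1 kept its direction in both comparisons under every alternative run, and its call under all but the fits of a contrast's own arrays: after median centring with PCNB (2.20, adjusted p = 0.0515) and after quantile normalization with NAAC (1.19, adjusted p = 0.669). With each array left out it was called throughout, at 2.03 to 2.47 with PCNB and 1.27 to 1.53 with NAAC. The count of calls with PCNB by limma was 7 against the 3 chow control sets and 0 with its own arrays after median centring (345 genes at an unadjusted p under 0.05). With each array left out it was 1 to 2, and 2 without PCNB replicate 3 or RodentChow replicate 3. The count with NAAC was 1 after quantile normalization, with a gene's probe sets averaged and with the arrays of the title code, 4 with median centring, 953 against the 3 chow control sets, 1911 with its own arrays, 2114 with these median centred and 0 with these quantile normalized (844 at an unadjusted p under 0.05). With each array left out it was 1 to 4: 4 without NAAC replicate 3, and 1 without NAAC replicate 1 or 4 or FCO2 replicate 2 or 3. The correlation between the compounds was -0.48 without the filter and 0.043 after quantile normalization, where the same-sign share was 49.5%. The cause was not tested. Of the other genes named by the rule, called with neither compound and leaving out Cyp1b1 and Nqo1, none reversed as a call. With the contrast's own arrays 56 values became calls, 51 with these median centred and 33 against the 3 chow control sets. No paired analysis was possible because the replicate numbers were given in accession order and pair no samples. The array number and signals near background limit what could be seen: the median 95% interval of a gene was ± 0.24 with PCNB and ± 0.20 with NAAC.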
